A study of Arabidopsis thaliana with 6 samples.

Results

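Class III peroxidases are plant haem enzymes that are secreted to the cell wall and the vacuole. They use hydrogen peroxide to oxidise phenolic compounds and so cross-link lignin, extensin and other wall polymers, and they can also make reactive oxygen that loosens the wall. In a germinating seed, where the radicle and then the hypocotyl lengthen, both activities bear on the wall. The family is large, and many of its genes are known only by a locus number.

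The genes were to be chosen by an annotation description that holds the words "peroxidase superfamily protein" or starts with "peroxidase". No description column was among the annotation tables used here, so the rule was applied to the gene symbols and full names that RefSeq lists for each locus. The longer phrase occurred for 0 loci. A name starting with "peroxidase" occurred for 14 loci, and 7 of these had a probe set that names them alone, of 13286 loci in all with such a probe set. These 7 are called the annotated genes below. The rule in its original wording may take in more loci. For that reason a list of 73 loci of the family, written from general knowledge and not from the annotation, is described beside them. It contains all 14 named loci. Of the 73, 55 had a probe set of their own, the 7 annotated genes and 48 more, which are called the listed loci. The annotation used here gives those 48 only as loci without a peroxidase name, so they are given by locus number and with no individual role. Each of the 55 had 1 such probe set, so none had to be picked over another.

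Whole germinating seeds of Arabidopsis thaliana were hybridised to 6 ATH1 arrays, on which several short probes are combined into 1 signal per probe set. The pmdh1 pmdh2 double mutant (3 arrays) carries T-DNA insertions in At2g22780 and At5g09660, the genes of peroxisomal malate dehydrogenase, and the controls (3 arrays) are wild-type plants that segregated from a heterozygote for an insertion, labelled Col-0. All seeds were kept for 2 days at 4 °C and then grown at 22 °C under continuous light on 0.5-strength Murashige and Skoog agar with 1% sucrose, and all were at growth stage 0.7. The labels do not say whether replicates are separate seed batches, so the replicate spread behind each p-value may be technical, and whole seeds mix embryo, endosperm and seed coat.

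Signals were deposited as MAS5 values on a linear scale with a trimmed mean near 99.1 on every array, and fold changes below were taken from log2(signal + 10), where dim transcripts show a smaller change than their signals do. A gene was tested only if its mean log2 value reached 5.02, equal to a signal near 22.4. The median log2 value was between 5.57 and 5.61 on mutant arrays and between 5.46 and 5.54 on wild-type arrays. The difference was 0.0883 (exact two-sided permutation p = 0.1, the smallest that 3 against 3 allows). Between probe sets, signals depend on the probes as well as on the transcript, so they are not compared between genes.

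None of the annotated genes differed between the genotypes at a limma adjusted p under 0.05. Of the 7, 4 were bright enough to be tested, and 0 of these were called, while 2 had an unadjusted p under 0.05, 1 higher and 1 lower. Over all 13648 probe sets tested, 3.78% were called and 17.3% had an unadjusted p under 0.05. The 4 fold changes ran from −0.46 to 0.56 on the log2 scale with a median of 0.17, and the median over all probe sets was 0.05.

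AT5G66390, annotated as peroxidase 72, is known for its part in stem lignification. Its signals were 136, 161 and 179 in the mutant and 137, 90.5 and 89.8 in the wild type. Wild-type replicate 1 lay with the lowest mutant array and the other wild-type arrays lay below, so the groups touched. The log2 fold change was 0.56 (SE 0.16, 95% interval 0.22 to 0.90, limma adjusted p = 0.0665). Without wild-type replicate 1 it was 0.74 and passed (limma adjusted p = 0.00649). It stayed uncalled with any other array left out (limma adjusted p = 0.0691 to 0.241).

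Prx37 (AT4G08770), annotated as peroxidase 37, had signals of 107, 80.2 and 86.0 in the mutant and 138, 130 and 118 in the wild type. Every mutant array lay below every wild-type array. The log2 fold change was −0.46 (SE 0.14, 95% interval −0.75 to −0.17, limma adjusted p = 0.0765). It passed after quantile normalization (−0.53, adjusted p = 0.0442), after median centring of the arrays (−0.55, adjusted p = 0.0261) and with a replicate block (adjusted p = 0.0481). Prx37 stayed uncalled without the filter on signal (adjusted p = 0.166) and with any 1 array left out (adjusted p = 0.0613 to 0.244). Its neighbour in the annotation, the listed locus AT4G08780, had signals of 2.0 to 14.0 over the 6 arrays and was too dim to be tested.

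PRXR1 (AT4G21960) and AT5G64120 differed less between the genotypes. PRXR1 signals were 1309, 1397 and 1306 in the mutant and 1274, 1119 and 1199 in the wild type, with each mutant array above each wild-type array. The difference was small, at 0.16 (SE 0.094, 95% interval −0.04 to 0.36, limma adjusted p = 0.413). AT5G64120, annotated as peroxidase 71 and known to act in the wall's response to damage and in cell expansion, had signals of 332, 322 and 320 in the mutant and 341, 240 and 283 in the wild type. The groups overlapped, and the log2 fold change was 0.18 (SE 0.13, 95% interval −0.09 to 0.45, limma adjusted p = 0.506). It was 0.306 without wild-type replicate 1 and 0.0626 without wild-type replicate 2, uncalled in both.

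The 3 other annotated genes were too dim to be tested. AT2G41480, annotated as peroxidase 25, had signals of 14.2, 13.7 and 27.0 in the mutant and 30.7, 32.3 and 11.8 in the wild type, and its mean log2 value of 4.93 lay just under the floor. PRX52 (AT5G05340), known for lignin formation in the stem, had signals of 17.2, 9.38 and 1.57 in the mutant and 1.16, 8.95 and 10.9 in the wild type. AT3G50990, annotated as peroxidase 36 and known to loosen the outer wall of seed coat cells so that mucilage is released, stayed between 0.577 and 2.97 on all 6 arrays. None of these 3 separated the genotypes.

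**Figure D1:**
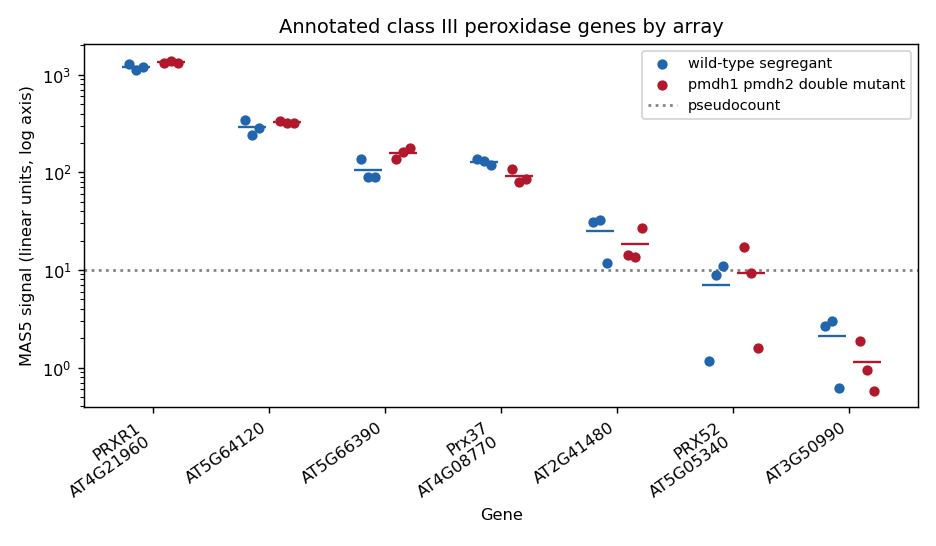
MAS5 signal (log axis) of the 7 annotated class III peroxidase genes on the 3 wild-type and 3 mutant arrays. Points are arrays, short lines are group means and the dotted line marks the pseudocount of 10. Prx37 lies lower on every mutant array, AT5G66390 is higher apart from wild-type replicate 1, and AT3G50990 stays under the pseudocount throughout.

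Among the listed loci, AT2G37130 and AT3G01190 were called higher in the double mutant and 0 loci were called lower. Of the 55 loci with a probe set of their own, 30 were tested, the 4 annotated genes among them. The 2 calls, both higher, stand beside 1.96% of all tested probe sets called higher and 1.82% called lower. The loci can come only from probe sets that name 1 gene, and of the 7307 of these matched to a RefSeq locus and tested, 1.46% were called higher and 1.79% lower. Fitted alone, with the filter set on them, probe sets naming 1 gene gave 91 calls higher and 118 lower among 8062 tested. The other 28 of the 30 family loci did not pass. Of the 30, 9 had an unadjusted p under 0.05, 6 higher and 3 lower, where 17.3% of all tested probe sets did. The median log2 fold change of the 30 was 0.05, the same to 2 decimals as over all probe sets, and 16 values were positive and 14 negative, where 59.4% of all values were positive.

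AT2G37130 had signals of 119, 154 and 121 in the mutant and 48.8, 46.5 and 63.9 in the wild type. The lowest mutant signal lay well above the highest wild-type signal. The mutant mean was 131.5 ± 19.2 (SD, n = 3), against a wild-type mean of 53.1 ± 9.44 (SD, n = 3). From log2(signal + 10) it was 2.25-fold higher (log2 fold change 1.17, SE 0.15, 95% interval 0.85 to 1.48, limma adjusted p = 0.000198). It stayed called under all 17 alternative settings, with adjusted p-values from 0.000124 to 0.0105.

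AT3G01190 had signals of 114, 229 and 194 in the mutant and 79.2, 63.3 and 67.3 in the wild type. The groups did not overlap, although mutant replicate 1 lay closer to the wild type than the other mutant arrays. It was 2.29-fold higher (log2 fold change 1.19, SE 0.19, 95% interval 0.79 to 1.60, limma adjusted p = 0.00164). The log2 fold change was 1.47 without mutant replicate 1 and 1.00 without mutant replicate 2, with the call kept in both. The call was lost without the filter on signal (adjusted p = 0.0515). There all 22746 probe sets entered both the variance fit and the adjustment.

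A probe set shared by AT2G38380 and AT2G38390, both on the list, was also higher. Its signals were 465, 432 and 407 in the mutant and 340, 314 and 287 in the wild type, with no overlap. The log2 fold change was 0.46 (SE 0.11, limma adjusted p = 0.033), and which of the pair carries it cannot be told apart on this array. This call did not hold when any 1 array other than wild-type replicate 1 was left out (0.397 to 0.502, adjusted p = 0.0707 to 0.156). It was also lost after median centring (0.37, adjusted p = 0.0824), without the filter (adjusted p = 0.0703) and without the intensity trend (adjusted p = 0.0877). The probe set shared by AT4G37520 and AT4G37530 gave 0.15 (adjusted p = 0.60), and those holding AT2G18140 with AT2G18150 and AT3G17070 with AT3G42570 were too dim to be tested.

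**Figure D2:**
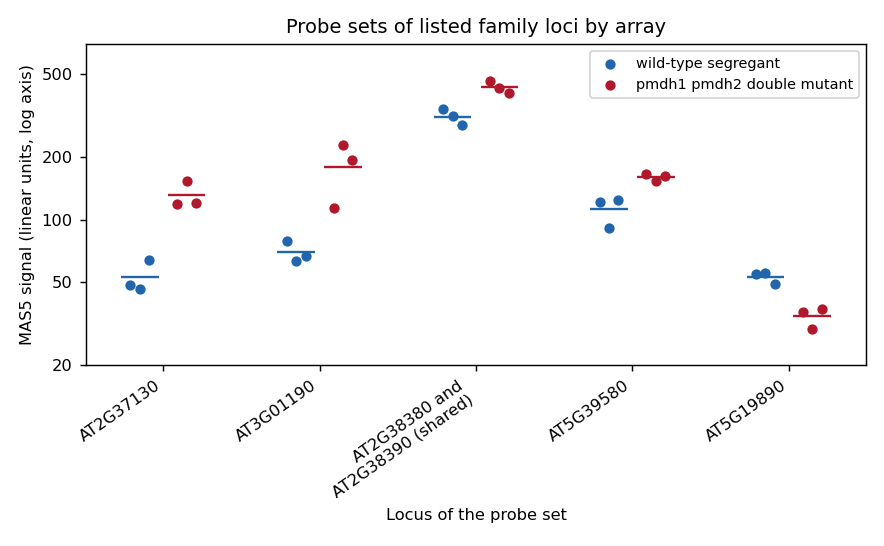
MAS5 signal (log axis) on each of the 6 arrays for AT2G37130, AT3G01190, the probe set shared by AT2G38380 and AT2G38390, AT5G39580 and AT5G19890. Points are arrays and short lines are group means. The first 3 probe sets were called higher in the double mutant, while AT5G39580 and AT5G19890 were not called although their groups do not overlap.

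Several listed loci came near the threshold in both directions. AT5G39580 had signals of 166, 154 and 163 in the mutant and 122, 91.1 and 124 in the wild type. The groups did not overlap, with a log2 fold change of 0.49 (SE 0.14, limma adjusted p = 0.0551). It passed with a stricter filter (adjusted p = 0.0493) and with robust variance moderation (adjusted p = 0.0495). With a replicate block (adjusted p = 0.0343) and without wild-type replicate 1 (adjusted p = 0.0364) it also passed. It stayed uncalled after quantile normalization (adjusted p = 0.0914), after median centring (0.127) and without the filter (0.137). Leaving out any other array gave no call (adjusted p = 0.0766 to 0.182). AT4G30170 had signals of 522, 531 and 543 in the mutant and 433, 436 and 382 in the wild type, again without overlap, at 0.35 (SE 0.11, adjusted p = 0.0854). AT4G33420 was at 0.53 with a wider error (SE 0.21, adjusted p = 0.205), its wild-type signals spreading from 17.8 to 46.4. It was 0.255 without wild-type replicate 1 (adjusted p = 0.469) and 0.765 without wild-type replicate 2 (adjusted p = 0.0655).

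In the other direction, AT5G19890 had signals of 35.9, 30.0 and 37.2 in the mutant and 55.2, 55.5 and 49.0 in the wild type. All mutant values lay below all wild-type values, with a log2 fold change of −0.51 (SE 0.15, limma adjusted p = 0.0747). It passed after quantile normalization (−0.60, adjusted p = 0.0385) and after median centring (−0.60, adjusted p = 0.0282). AT5G19890 stayed uncalled without the filter (adjusted p = 0.191) and with any 1 array left out (adjusted p = 0.126 to 0.22). AT3G28200 had signals of 177, 159 and 215 in the mutant and 257, 227 and 219 in the wild type, at −0.35 (SE 0.13, adjusted p = 0.176). AT5G64110 and AT1G49570 completed the 5 lowest values, at −0.23 and −0.22, neither near the threshold.

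Separation of the groups was seen for 11 of the 30 tested loci (36.7%), 7 higher and 4 lower in the mutant, where 21.9% of all tested probe sets separated, 13.1% higher and 8.8% lower. Those higher were AT2G37130, AT3G01190, PRXR1, AT5G39580, AT4G30170, AT2G18980 and AT2G34060, the last 2 at 0.25 (adjusted p = 0.299) and 0.34 (adjusted p = 0.312). Those lower were Prx37, AT5G19890, AT3G28200 and AT1G49570. That share was not tested, since the loci share the same 6 arrays.

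**Figure D3:**
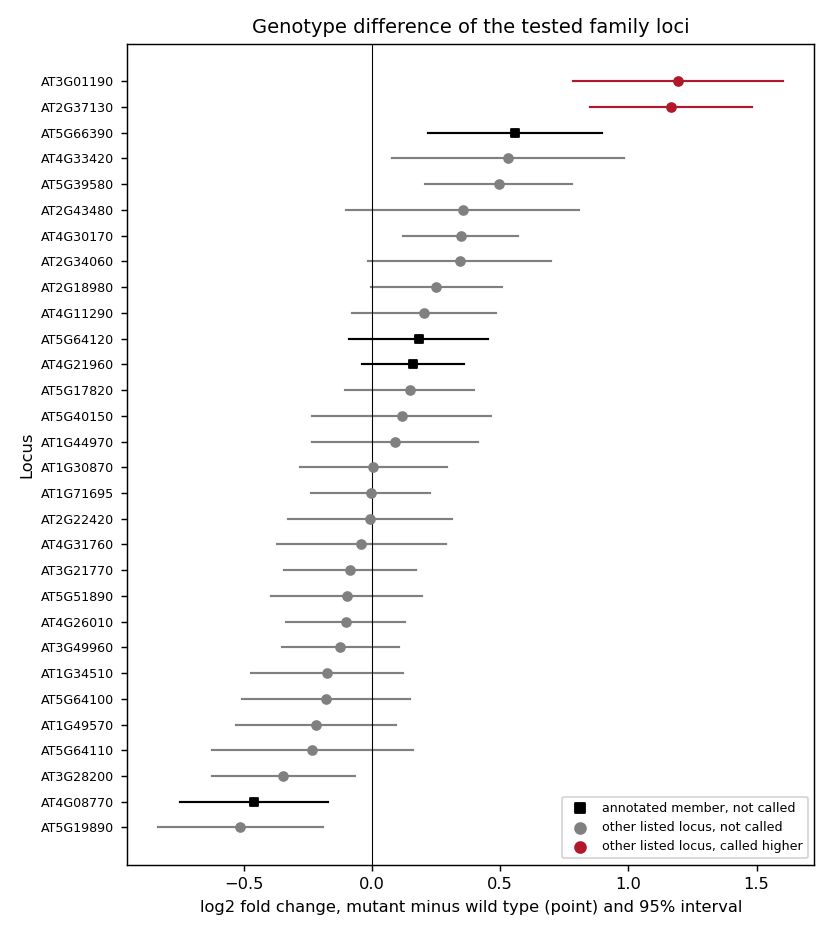
Difference in log2(signal + 10) between mutant and wild type for the 30 tested family loci with 95% intervals from limma. Squares are annotated genes, grey circles other listed loci and red circles the loci called higher. AT3G01190 and AT2G37130 stand at 1.19 and 1.17, and the remaining 28 lie between −0.51 and 0.56.

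The naming rule also takes 8 family loci by their probe-set signal, which is no comparison of transcript amounts. None of the 8, PRXR1 and AT4G30170 among them, was called in limma. AT4G26010 had signals of 1514, 1459 and 1572 in the mutant and 1928, 1413 and 1582 in the wild type, a log2 fold change of −0.10. AT5G64100 had 1251, 1144 and 1402 in the mutant and 1978, 1207 and 1220 in the wild type, a change of −0.18. In both, wild-type replicate 1 was the highest array, and without it the values were 0.02 and 0.06. AT1G34510 had the same pattern, with 733 in wild-type replicate 1 against 462 and 528 in the others, and moved from −0.18 to 0.01. AT5G17820, AT1G30870 and AT3G49960 were at 0.15, 0.01 and −0.12, none passing in limma (adjusted p = 0.569, 0.988 and 0.605).

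In RefSeq's annotation 5 pairs of the 55 loci are direct neighbours among protein-coding genes. The 3 adjacent loci AT5G64100, AT5G64110 and AT5G64120 gave −0.18, −0.23 and 0.18. AT5G19890, with one of the lowest values, neighbours AT5G19880, whose signals stayed under the pseudocount on every array. Neither AT2G37130 nor AT3G01190 has such a neighbour among the 55.

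The remaining 25 loci were too dim to be tested, with signals from 0.387 to 32.3, and 4 of them lay under the pseudocount on all 6 arrays. AT2G39040, one of them, had signals of 22.0, 29.8 and 27.1 in the mutant and 11.4, 21.5 and 18.4 in the wild type. Of these 25, 3 separated the genotypes, each higher in the mutant, where 7.16% of all probe sets too dim to be tested separated in that direction, and the 3 were not tested. At such signals MAS5 values are noisy.

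Few of the genes that supply or share the peroxidases' substrates could be linked to a probe set. The annotation used here names a gene for 14016 of the 22746 probe sets, so listed genes without a link may still have been measured. There were 9 lists with 99 entries (NADPH oxidases, superoxide dismutases, catalases, ascorbate and glutathione peroxidases, laccases, monolignol synthesis, extensins and the Casparian strip). Of the entries, 19 were linked to a probe set of their own and 10 were tested. In limma 0 of the 10 were called and 3 had an unadjusted p under 0.05. Over all probe sets tested these shares were 3.78% and 17.3%. RBOHE (AT1G19230), an NADPH oxidase gene that makes superoxide outside the cell, had signals of 37.9, 29.2 and 27.4 in the mutant and 24.1, 14.0 and 17.5 in the wild type (log2 fold change 0.55, SE 0.19, adjusted p = 0.147). Its wild-type mean of 18.6 lay under the filter's floor, so it passed the filter through the mutant arrays. TAPX and SAPX, ascorbate peroxidase genes of the plastid, were at −0.44 and 0.25 (adjusted p = 0.172 and 0.263). HCT, an enzyme gene of monolignol synthesis, was at 0.08 (adjusted p = 0.777). The 6 tested genes of the extensin list, which also holds leucine-rich extensins, ran from −0.09 to 0.37 with a median of 0.16. Of these 6, 0 had an unadjusted p under 0.05. In each of them mutant replicate 1 was the highest mutant array and mutant replicate 2 the lowest, as in AT5G06630 (929, 414 and 656). They are thus not separate results for 6 genes. AT5G06630 and AT3G24480 had the smallest p-values among them (0.37 and 0.16, adjusted p = 0.378 and 0.701). For 5 of the 9 lists, 0 genes were tested.

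The lists of markers of seed parts and cell types were written with earlier results of these data known, so they are no independent check. Among their linked genes, those of the late embryo differed between the genotypes. Both linked genes of the late embryo list, of 11 listed, were called higher, as were 1.96% of all tested probe sets. All wild-type signals of both lay under the filter's floor, a signal near 22.4. Both genes therefore passed the filter only through the mutant arrays. PAP85, a storage protein gene, had signals of 199 to 277 on mutant arrays and at most 20.8 on wild-type arrays, and the summed signal of PAP85 and M17 was 338 to 427 on mutant arrays, against 10.2 to 22.9 on wild-type arrays. M17 was near 0 in the wild type, at 0.22 to 6.09. The part of this difference in the rise of AT2G37130 and AT3G01190 was not tested. Both linked root hair genes of 8 listed, EXPA7 and EXPA18, were not called, and their summed signal was 535 to 642 on mutant arrays, against 542 to 684 on wild-type arrays. BAN, the 1 linked gene of 6 on the seed coat list, was at 0.573 to 1.32 on all arrays, and 0 of the 4 endosperm genes could be linked to a probe set of their own. In whole seeds, a different share of cells of one kind and a different amount of RNA per cell cannot be told apart.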

How the data were processed

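Total RNA of whole seeds, biotin-labelled per the labels, was measured on 1 array per sample. The authors deposited 1 linear intensity per probe set and array. The submitters' processing notes name MAS5, with no version in the sources used here. No genome build is named, so no coordinates are given. Groups and replicate numbers came from the sample titles.

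Intensities were transformed to log2(signal + 10). After removal of 64 control probe sets, the 13648 of 22746 others at or above the 40th percentile of mean log2 value were tested with limma 3.58.1 in R 4.3.3, mutant minus wild type, with eBayes and an intensity trend (prior degrees of freedom 11.5). P-values were adjusted by Benjamini-Hochberg over all 13648, two-sided, and called under 0.05. SEs are limma's moderated ones. The fit was also run on simulated data with independent noise on each array, which cannot show effects shared across an array. With 3 arrays per group, precision is limited by their number.

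Probe sets were paired with genes through the platform annotation and gene identifiers of TAIR10.1; 13436 of the 13513 probe sets that name 1 gene were matched. The membership rule asks for a description, which the annotation tables used here do not hold, and was applied to RefSeq symbols and synonyms. The 73 family loci and 13 other lists were written by hand. The members and lists were chosen with earlier results of these data known. The naming rule (all called, the 8 brightest, the 5 largest rises and 5 largest falls, all without overlap, the 2 brightest untested) was written for members and was extended to the family loci after the annotation was seen. In other lists it names called genes and the 2 smallest p-values. Replicate numbers were not taken as pairs in the main fit. Deviations from group means of same-numbered arrays correlated at 0.037, 0.17 and 0.13 across probe sets. These low but positive values do not show that same-numbered arrays are unrelated. With a replicate block the calls over all probe sets went from 516 to 686. Alternatives covered the pseudocount, filter, normalization, variance model, replicate block, probe-set choice and each array left out.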

Additional observations from a re-analysis of the deposited data

How the results depend on the processing

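There were 17 alternative settings. Alternatives for the family loci outside the annotated genes and for shared probe sets were added after seeing the data. Where no cause is given, the cause was not tested. The count of annotated genes called, 0, became 1 under quantile normalization, under median centring and with a replicate block (Prx37 each time), and ranged from 0 to 1 with 1 array left out (AT5G66390 without wild-type replicate 1). The count of family loci called, 2, became 1 without the filter, where dim probe sets entered both the variance fit and the adjustment. It became 4 under quantile normalization, median centring and the replicate block. With 1 array left out it ranged from 2 to 4, the 4 being without wild-type replicate 1. Over all probe sets the count was 516, and it became 228 without the filter, 325 without the trend, 686 with the block and 258 to 705 with 1 array left out. Median centring moved the share called higher, with 179 higher and 474 lower. It also moved the median of all probe sets from 0.05 to −0.04. The replicate block changed no call beyond Prx37 and AT5G39580 (0.49, adjusted p = 0.0343) among named loci. Pathway lists had 0 calls in every setting. The median of the annotated genes tested ranged from 0.08 to 0.26 and that of the family loci from −0.04 to 0.21.

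Of 384 values for named loci, 356 kept direction and side of the threshold, 10 gained a call, 9 lost one and 9 turned sign, all of the last uncalled. AT1G30870 turned to −0.083 under median centring and ranged from −0.107 to 0.137 with 1 array left out, below 0 in 4 of these 6 refits. AT4G26010 turned to 0.015 under quantile normalization. With 1 array left out, AT4G26010 ranged from −0.205 to 0.018, AT1G34510 from −0.317 to 0.011 and AT5G64100 from −0.299 to 0.055, each above 0 only without wild-type replicate 1. Signals near background limit the dim loci.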
